A study of Mus musculus with 17 samples.

Results

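Potassium channel subunits were examined in gastrocnemius muscle as the genes annotated as protein-coding whose symbols begin with Kcn, of which there were 94 among 45777 genes in the table. A further 4 genes with such symbols had another biotype and were left out. Of the 94 genes, 54 passed the filter on low counts and were tested together with all 16731 genes that passed it. The other 40 were too low to test, and 15 of these had no count in any library.

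The study asked how age and a diet containing allulose, a low-calorie epimer of fructose, relate to gene expression in the gastrocnemius, the large muscle of the calf. Each of 17 mRNA libraries came from 1 male mouse of the C57BL/6J strain (spelled C56BL/6J in the sample labels). The ALL mice (n = 4) were 48 weeks old at the outset and had 1 week of commercial chow to acclimate. They were then fed AIN-93G with 3% allulose in place of cellulose for 12 weeks, to an age of 61 weeks. The Middle-aged mice (n = 6) were fed plain AIN-93G on the same schedule. The Mature mice (n = 7) were fed plain AIN-93G as well, and went from 8 weeks of age at the outset to 21 weeks. The labels give these ages as 8 weeks for Mature and 12 months for both older groups. No Mature mice received allulose, so the diet was compared at the older age only. Libraries held 64018538 to 70544150 counts in ALL, 61832304 to 72640511 in Middle-aged and 49774656 to 63970155 in Mature. The mitochondrial share of counts was 16.7% to 21.7% in ALL, 15.1% to 23.4% in Middle-aged and 15.5% to 22.3% in Mature. The tissue label was checked with 8 skeletal muscle fibre markers, which summed to 126385 to 151539 CPM (counts scaled to the size of the library) in ALL, 115644 to 152142 in Middle-aged and 127517 to 150646 in Mature.

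Potassium channels let potassium ions leave or enter a cell down their electrochemical gradient and so set the resting potential and end the action potential. Pore-forming subunits assemble as tetramers, or as dimers in the two-pore family, and cytosolic or single-span accessory subunits alter their gating and traffic. In skeletal muscle, Kir2 inward rectifiers hold the resting potential, KATP channels couple it to energy state, and voltage-gated and calcium-activated channels repolarise the fibre, while motor axons and blood vessels in the same muscle carry channels of their own.

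The members are related through the selectivity filter, the glycine-tyrosine-glycine or glycine-phenylalanine-glycine motif that lets potassium pass in preference to sodium. The coding sequences were searched in frame and on the coding strand for GGNTANGGN and GGNTTNGGN, which include the codons of these motifs. Of the 94 members, 77 (81.9%) held at least 1 of the patterns, against 3600 of 21739 mouse genes with a complete coding sequence (16.6%). The first pattern alone was present in 62 members (66.0%), against 1317 genes (6.06%). A match is only a description of the letters. No match was found in the 3 Kv beta, 5 KCNE and 4 KChIP subunits, which are accessory subunits that form no pore. The coding windows of 7 members of the Kv1 to Kv4, calcium-activated and inward rectifier families are shown because they carry the element that the pore-forming members share. Each has 18 bases either side of the pattern in capitals (GENCODE annotation, GRCm38, 5′ to 3′ on the coding strand).
Kcna2, chr3:107105212-107105256, plus strand: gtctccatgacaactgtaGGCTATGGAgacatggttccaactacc
Kcna7, chr7:45409449-45409493, plus strand: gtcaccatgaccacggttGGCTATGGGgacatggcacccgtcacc
Kcnc1, chr7:46427961-46428005, plus strand: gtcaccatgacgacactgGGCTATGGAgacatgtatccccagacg
Kcnn1, chr8:70850639-70850683, minus strand: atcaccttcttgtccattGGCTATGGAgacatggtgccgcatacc
Kcnma1, chr14:23528395-23528439, minus strand: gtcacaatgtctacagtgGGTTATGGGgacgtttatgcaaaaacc
Kcnj2, chr11:111072195-111072239, plus strand: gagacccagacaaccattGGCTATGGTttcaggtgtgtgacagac
Kcnj8, chr6:142566430-142566474, minus strand: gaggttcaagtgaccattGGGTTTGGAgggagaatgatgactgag

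Kcnab1, which encodes the accessory subunit Kv beta 1, holds neither pattern and was the member with the smallest p between Middle-aged and Mature. RefSeq places the gene at chr3:64949212-65378225 on GRCm38 and gives it 3 start sites. The regions from 250 bases before to 50 bases after each start are shown because a count per gene does not tell which start a transcript came from (RefSeq, GRCm38.p6, plus strand, 5′ to 3′). Capitals mark GGGCGG (the GC box), TATAAA (the TATA box) or their reverse complements, both strands having been searched.
Kcnab1 start 1, chr3:64948962-64949261: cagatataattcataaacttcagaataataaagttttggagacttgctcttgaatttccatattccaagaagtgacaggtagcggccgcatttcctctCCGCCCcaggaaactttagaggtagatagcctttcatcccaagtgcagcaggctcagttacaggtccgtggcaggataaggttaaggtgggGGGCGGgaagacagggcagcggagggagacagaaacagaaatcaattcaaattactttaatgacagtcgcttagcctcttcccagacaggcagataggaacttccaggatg
Kcnab1 start 2, chr3:65108764-65109063: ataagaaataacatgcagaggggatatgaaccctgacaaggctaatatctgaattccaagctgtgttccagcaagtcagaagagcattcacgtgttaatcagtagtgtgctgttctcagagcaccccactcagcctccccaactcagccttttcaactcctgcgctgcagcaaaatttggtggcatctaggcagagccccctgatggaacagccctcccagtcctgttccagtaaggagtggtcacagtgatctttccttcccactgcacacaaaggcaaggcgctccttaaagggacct
Kcnab1 start 3, chr3:65187853-65188152: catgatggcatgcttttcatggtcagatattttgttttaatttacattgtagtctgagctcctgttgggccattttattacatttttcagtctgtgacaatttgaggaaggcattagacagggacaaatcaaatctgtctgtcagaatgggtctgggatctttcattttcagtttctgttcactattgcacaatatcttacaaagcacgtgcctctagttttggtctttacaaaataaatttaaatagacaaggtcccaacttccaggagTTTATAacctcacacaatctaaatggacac
The first region held 2 matches to GGGCGG, the second held no match and the third held 1 match to TATAAA. That match is the reverse complement and lies in the 50 bases after the start, not before it. Among 32851 mouse promoter regions of the same 300 bases, 35.7% held GGGCGG and 13.6% TATAAA on either strand and at any position. The E-box CAGCTG, found in 16.3% of these regions, was in none of the 3. RefSeq promoter regions were matched for 69 of the 94 members.

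Levels between members were compared in TPM, the deposited transcript level, which is scaled for gene length and depth. Kcnj11, the pore subunit Kir6.2 of the muscle KATP channel, averaged 76.3 TPM over the 17 libraries, and Kcna7, the voltage-gated subunit Kv1.7 of muscle and heart, averaged 71.9 TPM. The next levels were those of the inward rectifier Kir2.2 (Kcnj12) at 25.1 TPM, Kir2.1 (Kcnj2) at 21.4 TPM and the fast voltage-gated subunits Kv3.4 (Kcnc4) at 21.2 TPM and Kv3.1 (Kcnc1) at 14.5 TPM. Kcnma1, the pore of the large-conductance BK channel, averaged 11.3 TPM and Kcnn1, the small-conductance subunit SK1, averaged 11.2 TPM. The first pair had overlapping ranges over the libraries, as did Kcnj12, Kcnj2 and Kcnc4. Kcnc1, Kcnma1 and Kcnn1 overlapped as well. Kcnc1 also reached into the ranges of Kcnj12, Kcnj2 and Kcnc4, and Kcnma1 into that of Kcnj2. The order of members with overlapping ranges is not resolved. All members together summed to a median of 327 TPM in ALL (302 to 347), 324 TPM in Middle-aged (286 to 378) and 304 TPM in Mature (292 to 340), and the 3 ranges overlapped.

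**Figure D1:**
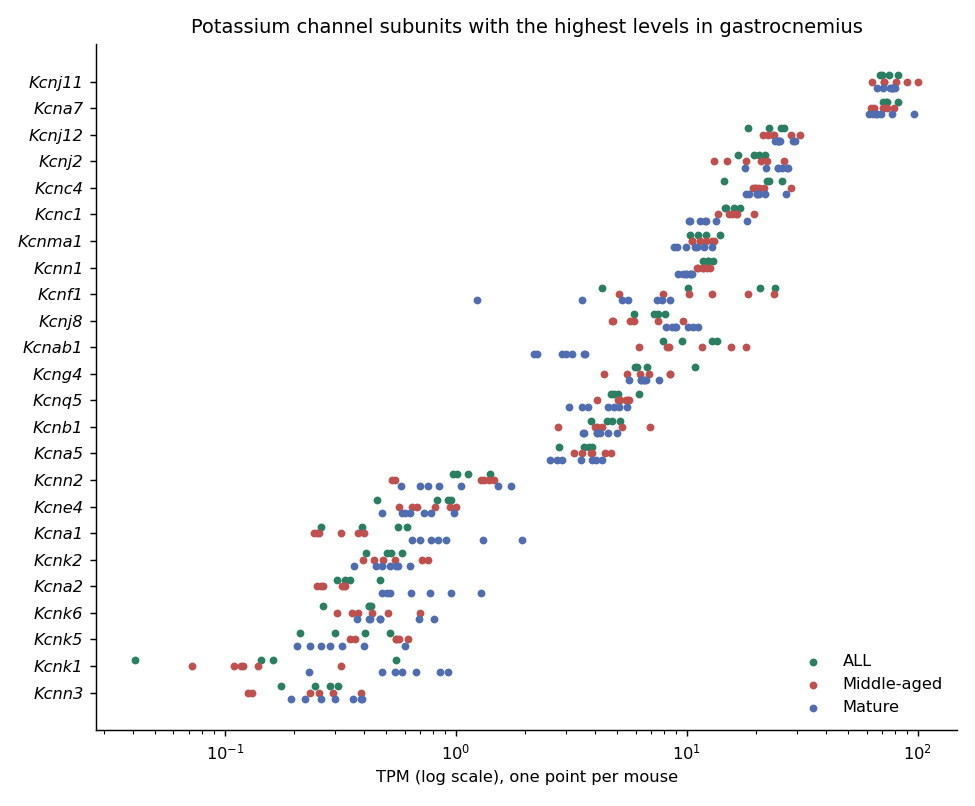
TPM per mouse (log scale) of the members with the highest levels, by mean over the 17 libraries, with ALL, Middle-aged and Mature as colours and 1 point per mouse. Kcnj11 and Kcna7 lay at the top with means of 76.3 and 71.9 TPM, and Kcnab1 was lower in all 7 Mature mice than in every older mouse.

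Voltage-gated Kv1 to Kv4 subunits and inward rectifiers made up most of this total. The 17 Kv1 to Kv4 genes had median sums of 124 TPM in ALL, 120 TPM in Middle-aged and 112 TPM in Mature. The 15 inward rectifiers had median sums of 125 TPM in ALL, 127 TPM in Middle-aged and 136 TPM in Mature. The 14 two-pore domain genes, which carry leak currents, summed to a median of 1.47 TPM in ALL, 1.68 TPM in Middle-aged and 2.22 TPM in Mature, and 6 of them had no count in any library. The largest difference in proportion among family sums was that of the 3 Kv beta subunits, with medians of 11.3 TPM in ALL, 10.2 TPM in Middle-aged and 3.19 TPM in Mature. This sum was nearly all Kcnab1, since Kcnab2 and Kcnab3 did not exceed 0.16 and 0.188 TPM in any mouse.

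The members without a count in any library were Kcna4, Kcne1, Kcnip1, Kcnj1, Kcnj5, Kcnj9, Kcnj16, Kcnk4, Kcnk9, Kcnk12, Kcnk15, Kcnk16, Kcnk18, Kcns2 and Kcnv1. A count of 0 allows up to 3 counts, which corresponded to 0.0404 to 0.0600 CPM depending on the library and covers counting error only. The other 25 members that were not tested had 2 to 87 counts over all 17 libraries, with Kcnrg, a regulator of channel assembly, at the top.

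Between Middle-aged and Mature mice, 8 of the 54 tested members passed an FDR under 0.05 in edgeR's quasi-likelihood test (14.8%), against 1721 of all 16731 genes tested (10.3%). Higher in Middle-aged were 3 members (5.56%, against 4.75% of all genes), among them Kcnab1 and Kcnn1. Lower in Middle-aged were 5 members (9.26%, against 5.54% of all genes), namely Kcna1, Kcna2, Kcnj8, Kcnk1 and Kcnu1. Groups did not overlap for 2 members on the higher side, Kcnab1 among them, where 1.83% of all genes did so, and for Kcna1 and Kcna2 on the lower side, where 2.21% did so. The sign of the log2 fold change (logFC) was positive for 27 members and negative for 27, with a median of 0.02 against 0.01 over all genes tested.

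**Figure D2:**
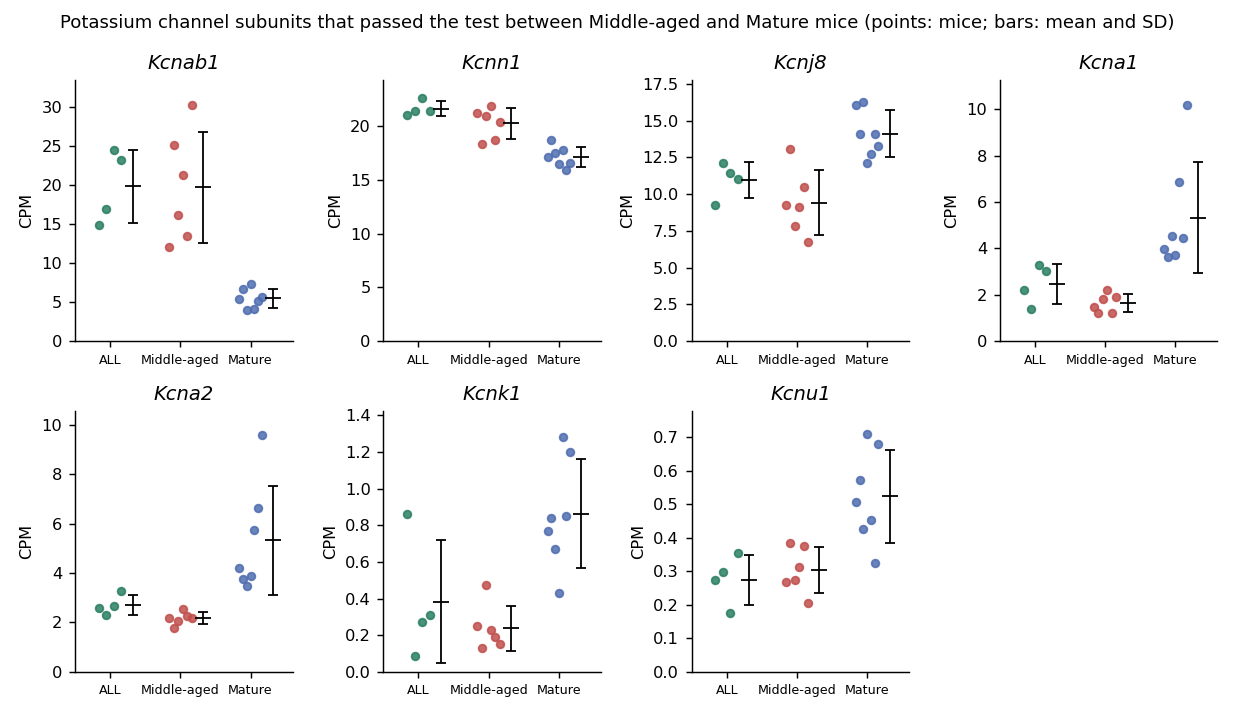
CPM per mouse of 7 members that passed an FDR under 0.05 between Middle-aged and Mature, in panels with 1 point per mouse and bars for the mean and SD (n = 4 ALL, 6 Middle-aged, 7 Mature). Kcnab1, Kcna1 and Kcna2 had no overlap between Middle-aged and Mature, and the panel of Kcnk1 shows 1 ALL mouse at 0.864 CPM above the other 3.

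Kv beta 1 associates with Kv1 pores in the cytosol and gives them rapid inactivation. Kcnab1 was at 14.8, 16.96, 24.5 and 23.2 CPM in the ALL mice, had a lowest, median and highest value of 12.0, 18.7 and 30.3 CPM in Middle-aged mice, and of 3.94, 5.40 and 7.32 CPM in Mature mice. Every older mouse therefore lay above every Mature mouse, and the 2 older groups covered the same range. The logFC was 1.85 ± 0.21 (SE) between Middle-aged and Mature (FDR = 1.6e-05). Its FDR stayed at or below 0.00024 in each of the 26 alternative settings, with a logFC of 1.68 to 1.95. Between ALL and Middle-aged the logFC of Kcnab1 was 0.01 with a 95% interval of −0.49 to 0.50. Kcnab1 shares exon sequence with A330015K06Rik, a noncoding gene on the opposite strand, and the libraries were stranded but the strand setting of the counting is not given in the sources used here.

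The Kv1 pores Kv1.1 (Kcna1) and Kv1.2 (Kcna2), which in nerve lie beside the nodes of myelinated axons, were lower in the older mice. Kcna1 was at 2.18, 1.39, 3.28 and 3.04 CPM in ALL, at 1.20, 1.65 and 2.20 CPM (lowest, median, highest) in Middle-aged, and at 3.60, 4.46 and 10.2 CPM in Mature. Kcna2 was at 2.59, 2.31, 2.65 and 3.29 CPM in ALL, at 1.78, 2.19 and 2.54 CPM in Middle-aged, and at 3.48, 4.22 and 9.59 CPM in Mature. In both genes all Mature mice exceeded all older mice, and Mature replicate 7 was the highest of the 17. Between Middle-aged and Mature, Kcna1 fell by 1.70 ± 0.26 (SE) on the log2 scale (FDR = 0.00038) and Kcna2 fell by 1.29 ± 0.20 (SE) (FDR = 0.00048). Kcna6, the Kv1.6 pore that lies next to Kcna1 on chromosome 6 and was singled out after its values were seen, had a logFC of −1.45 without passing the threshold (FDR = 0.055). In contrast, Kcna5, the neighbour of Kcna1 on its other side at chr6:126532551-126535555, had a logFC of 0.21 (FDR = 0.31).

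Markers of Schwann cells, which myelinate motor axons, were mostly lower in Middle-aged than in Mature mice as well. All 14 markers of that list were tested, none of them being too low, and 12 of them fell in Middle-aged mice at an FDR under 0.05 (median logFC of the list −1.89). Their summed level was 48.7 to 119 CPM in ALL, 37.1 to 94.5 CPM in Middle-aged and 78.0 to 431 CPM in Mature, and Mature replicates 5 and 7 stood apart at 312 and 431 CPM. The myelin gene Pmp22 had a logFC of −1.84 (FDR = 0.0017) and Ugt8a, an enzyme of myelin lipid synthesis, one of −2.31 (FDR = 0.0012). Of 11 neuron and axon markers 5 could be tested, and only peripherin (Prph) passed the threshold, with a logFC of −1.43 (FDR = 0.043), while Nefl, Chat and Slc18a3 had no count. In bulk muscle, fewer cells or axons of a type and less RNA in each cannot be told apart, and the part of Schwann cell content in the result of Kcna1 and Kcna2 was not tested. Without Mature replicates 5 and 7 the logFC between Middle-aged and Mature was −1.31 for Kcna1 (FDR = 0.0008) and −1.02 for Kcna2 (FDR = 0.00081).

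**Figure D3:**
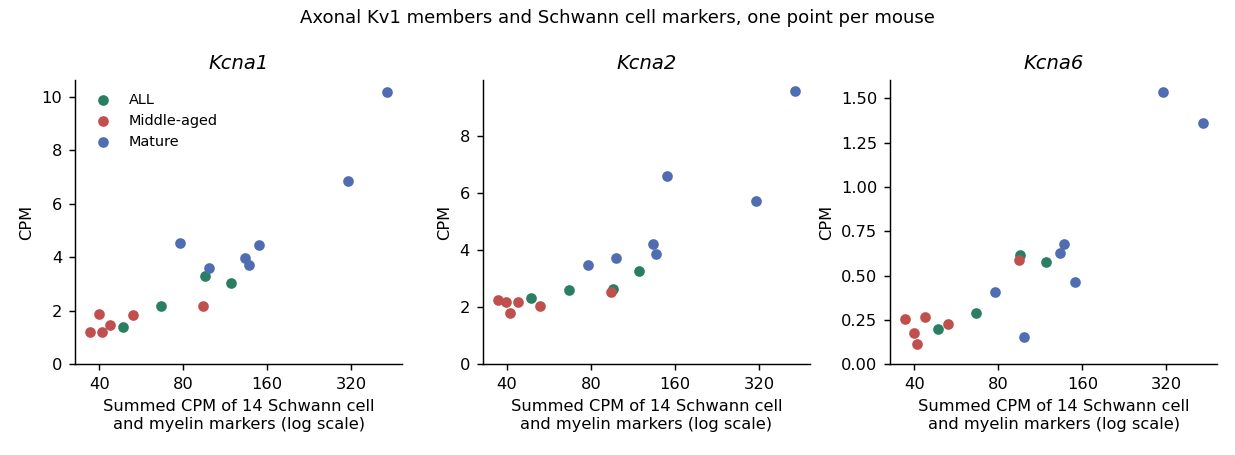
CPM of Kcna1, Kcna2 and Kcna6 in each mouse (vertical axes) against the summed CPM of 14 Schwann cell and myelin markers in the same mouse (horizontal axes, log scale), coloured by group. The 2 Mature mice farthest to the right, at 312 and 431 CPM of markers, held the highest values of Kcna1 and Kcna6. For Kcna2 the mouse at 431 CPM of markers was the highest. The mouse at 312 CPM, with 5.73 CPM of Kcna2, lay below Mature replicate 6 at 6.61 CPM. The Middle-aged mice lay at the lower left apart from 1 at 94.5 CPM.

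Of 17 genes that cluster Kv1 channels or build the node and its flanks, 12 were tested. In Middle-aged against Mature 4 were lower and 1 was higher, where 5.54% of all genes were lower and 4.75% higher. Lgi4, a secreted Schwann cell protein, had a logFC of −0.95 (FDR = 0.00026), gliomedin (Gldn) one of −1.59 (FDR = 0.0058) and neurofascin (Nfasc) one of −1.70 (FDR = 0.0065). Ank3, the ankyrin G of nodes and of other cells, was also lower, with a logFC of −0.36 (FDR = 0.037). The member of the list that was higher was Adam22, a receptor for LGI proteins, with a logFC of 0.46 (FDR = 0.013). Cntnap2, the Caspr2 that anchors Kv1 channels beside the node, had a logFC of −0.15 (FDR = 0.76).

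Kcnj8 encodes Kir6.1, the pore of the vascular KATP channel in smooth muscle and pericytes. It was at 9.23, 12.2, 11.4 and 11.1 CPM in ALL, at 6.74, 9.20 and 13.1 CPM (lowest, median, highest) in Middle-aged, and at 12.1, 14.1 and 16.3 CPM in Mature. Mature mice were high, and 1 Middle-aged mouse at 13.1 CPM fell within their range. Kcnj8 fell by 0.58 ± 0.12 (SE) on the log2 scale between Middle-aged and Mature (FDR = 0.0048), and had a logFC of −0.36 between ALL and Mature (FDR = 0.12). Endothelial markers were mostly lower as well, while smooth muscle and pericyte markers were mixed. Of 10 endothelial markers 9 fell in Middle-aged mice relative to Mature, with a summed level of 197 to 229 CPM in ALL, 168 to 225 CPM in Middle-aged and 247 to 333 CPM in Mature. Of 12 smooth muscle and pericyte markers 7 were lower and 1 was higher, among the lower ones Pdgfrb, a receptor of pericytes, with a logFC of −0.99 (FDR = 3.4e-06). The sum of that list was 3323 to 3688 CPM in ALL, 3255 to 3859 CPM in Middle-aged and 2932 to 3414 CPM in Mature. Its median was higher in Middle-aged (3440 CPM) than in Mature (3041 CPM), with overlapping ranges. Most of the sum was Des, which muscle fibres also express. All markers of both lists passed the filter, and their part in the result of Kcnj8 was not tested. Abcc9, the sulfonylurea receptor that pairs with either KATP pore, is also a marker of the smooth muscle and pericyte list. It had a logFC of −0.10 (FDR = 0.5).

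The KATP pore of the fibre itself, Kcnj11, gave other values. It was at 127 to 151 CPM in ALL (median 136), 127 to 173 CPM in Middle-aged (median 138) and 117 to 145 CPM in Mature (median 141), with a logFC of 0.08 between Middle-aged and Mature and a 95% interval of −0.08 to 0.23. Kcnj2, the Kir2.1 of the resting potential, was at 65.3, 70.2, 66.9 and 54.4 CPM in ALL, at 45.7, 59.9 and 78.1 CPM (lowest, median, highest) in Middle-aged, and at 57.0, 78.5 and 89.0 CPM in Mature. Its groups overlapped widely, and its logFC of −0.34 between Middle-aged and Mature did not pass the threshold (FDR = 0.079). Kcnj12 had a logFC of −0.02 and an interval of −0.24 to 0.20. Kcnj3, the GIRK1 subunit of receptor-gated channels, averaged under 1 CPM, with a logFC of 0.48 (FDR = 0.36), and Kcnj15, the Kir4.2 subunit, had a logFC of 0.54 (FDR = 0.58).

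Kcnc1, a fast Kv3 pore of the kind that allows brief action potentials in neurons, had a logFC of 0.40 between Middle-aged and Mature (FDR = 0.056), overlapping groups at 55.1 to 92.5 CPM in Middle-aged and 41.6 to 76.6 CPM in Mature, and a pass in 7 of the 26 alternative settings. Kcnc4, which in muscle pairs with the single-span subunit MiRP2, had a logFC of 0.04 with an interval of −0.17 to 0.25. Kcne3, the gene of MiRP2, averaged 0.211 ± 0.139 CPM in Middle-aged and 0.269 ± 0.0953 CPM in Mature (SD, n = 6 and 7), with a logFC of −0.34 (FDR = 0.65).

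Kcnn1, the pore SK1 that opens on intracellular calcium, changed by little but with little spread. It was at 21.1, 21.4, 22.6 and 21.5 CPM in ALL, at 18.3, 20.7 and 21.9 CPM (lowest, median, highest) in Middle-aged, and at 15.9, 17.2 and 18.7 CPM in Mature. The ALL mice all lay above the Mature mice, and the lowest Middle-aged mouse lay within the Mature range. The logFC was 0.24 ± 0.05 (SE) between Middle-aged and Mature (FDR = 0.0076) and 0.33 ± 0.06 (SE) between ALL and Mature (FDR = 0.0029). Both calls held in all 26 alternative settings. Kcnn3, the SK3 that reappears in denervated muscle, had a logFC of −0.34 between Middle-aged and Mature (FDR = 0.46) and averaged 1.16 CPM in ALL, 1.08 CPM in Middle-aged and 1.36 CPM in Mature. Among 17 tested genes of the response to denervation, the smallest p in that comparison was that of Lrp4, the agrin receptor, with a logFC of 0.40 (FDR = 0.057). Kcnma1, the BK pore, had a logFC of 0.16 with an interval of −0.05 to 0.38. Kcnn1 overlaps the opposite-strand gene A230052G05Rik in its exons.

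The remaining members past the threshold were read by few counts. Kcnk1, the two-pore subunit TWIK-1, had 57, 6, 17 and 21 counts in ALL, 9 to 31 counts in Middle-aged and 26 to 82 counts in Mature. One ALL mouse was as high as the Mature mice and the other 3 were low. The logFC was −1.86 ± 0.41 (SE) between Middle-aged and Mature (FDR = 0.007). Between ALL and Mature the logFC of Kcnk1 was −1.17 (FDR = 0.13), and −1.96 without ALL replicate 1 (FDR = 0.02). Kcnk1 shares exon sequence with the opposite-strand gene Gm45875. Kcnu1, the SLO3 pore known from sperm, had 18, 21, 11 and 24 counts in ALL, 15 to 28 counts in Middle-aged and 21 to 43 counts in Mature. Its groups overlapped, its logFC was −0.78 ± 0.24 (SE) between Middle-aged and Mature (FDR = 0.043), and the call was kept in 13 of the 26 alternative settings. Without Mature replicates 5 and 7 the FDR of Kcnu1 was 0.098.

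Kcnf1 (Kv5.1), a silent subunit that forms currents only with Kv2 pores, varied widely between mice of the same group. It was at 29.7, 12.2, 59.0 and 69.3 CPM in ALL, at 13.0, 34.6 and 63.5 CPM (lowest, median, highest) in Middle-aged, and at 3.64, 15.7 and 22.3 CPM in Mature. Several older mice were well above every Mature mouse and others were not. The logFC of 1.23 ± 0.41 (SE) between Middle-aged and Mature did not pass the threshold (FDR = 0.064), and did so in 6 of the 26 alternative settings. Its median level in ALL was 44.3 CPM, and the logFC between ALL and Middle-aged was 0.23 with an interval of −0.78 to 1.23.

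Among other members named by rule that did not pass the threshold between Middle-aged and Mature, Kcna7 had a logFC of −0.01 with an interval of −0.24 to 0.22. Kcnk2, the mechanosensitive TREK-1, had a logFC of 0.10 (FDR = 0.76), and Kcnk5, the acid-sensitive TASK-2, had one of 0.58 (FDR = 0.14). Kcne4, a single-span subunit, had a logFC of 0.17 (FDR = 0.64). Kcnh2, the ERG1 pore, had a logFC of −0.13 (FDR = 0.8) and Kcnt1, a sodium-activated pore, had one of −0.51 (FDR = 0.26). Kcnip2, a calcium-binding partner of Kv4 pores, was at 0 to 0.143 CPM in ALL, 0 to 0.424 CPM in Middle-aged and 0.200 to 0.695 CPM in Mature, with a logFC of −1.09 between Middle-aged and Mature (FDR = 0.28).

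**Figure D4:**
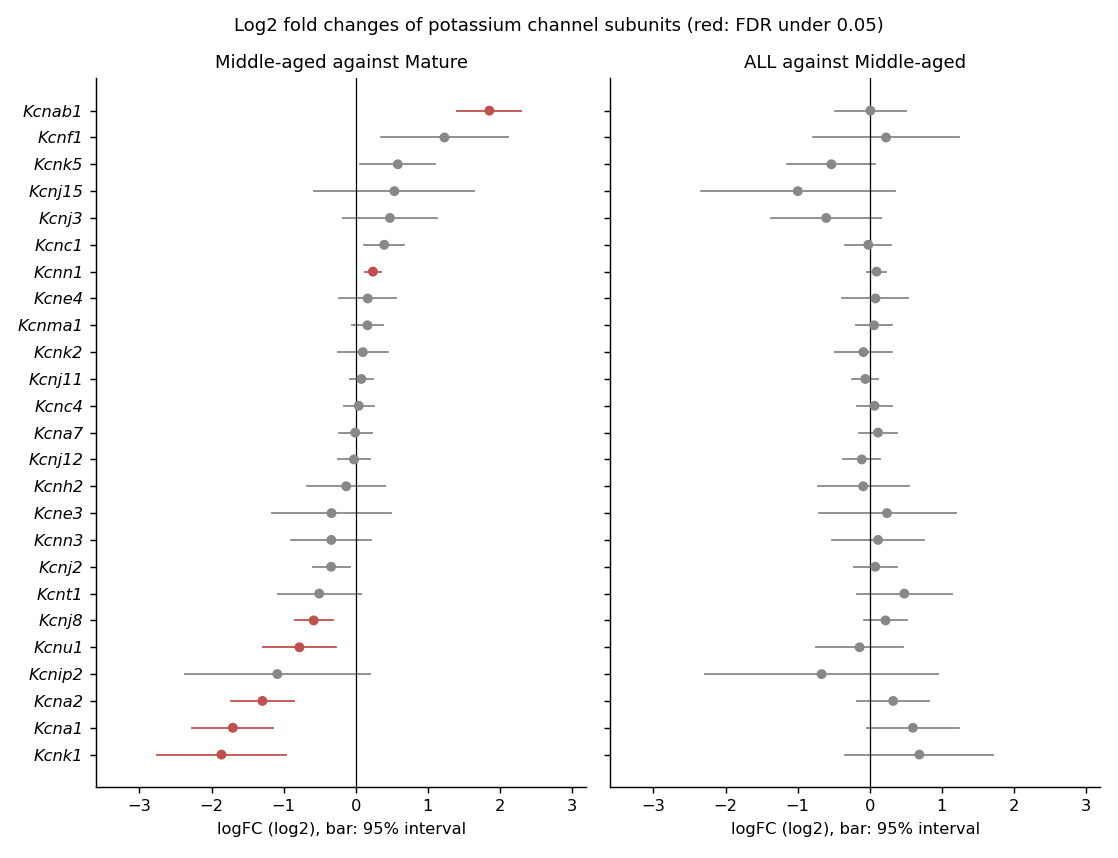
The logFC (log2, points) and 95% interval (bars) of 25 members named by rule, Middle-aged against Mature on the left and ALL against Middle-aged on the right, with red for an FDR under 0.05. On the left Kcnab1 lies at 1.85 and Kcnk1 at −1.86, and on the right every interval crosses 0.

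Partners of the channels were compared beside their subunits. Of 22 partner genes 20 were tested and 1 was higher in Middle-aged than in Mature, where 4.75% of all genes were. It was Dlg4, the scaffold PSD-95 that binds Kv1 pores, with a logFC of 0.78 (FDR = 0.0012). Between ALL and Mature 2 partner genes were higher, where 3.32% of all genes were. These were Dlg4 with a logFC of 0.60 (FDR = 0.025) and Lrrc38, a BK accessory protein, with one of 0.61 (FDR = 0.037). Where 4.75% of all genes were higher between Middle-aged and Mature, 2 of 22 other genes of muscle membrane excitability were. One of them was the sodium-calcium exchanger Slc8a1, with a logFC of 0.47 (FDR = 0.037). The muscle sodium channel Scn4a had a logFC of 0.06 (FDR = 0.7) and the chloride channel Clcn1 one of 0.15 (FDR = 0.25). Among 18 contractile genes of fibre types, the smallest p in that comparison was that of the myosin light chain Myl1, with a logFC of −0.19 (FDR = 0.21).

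The effect of the diet was assessed between ALL and Middle-aged mice. By edgeR none of the 54 members passed an FDR under 0.05, and none of the 16731 genes tested did (0%). Nor did any member reach an unadjusted p under 0.05, a level that 603 of all genes reached (3.6%), or separate the groups without overlap, as 0.478% of all genes did. DESeq2 and the likelihood ratio test called none of the members and called 2 and 4 of all genes. The member with the smallest p was Kcna1, whose logFC of 0.60 had a 95% interval of −0.04 to 1.23. Kcna2 had a logFC of 0.32 with an interval of −0.18 to 0.83. The 14 Schwann cell markers had a median logFC of 0.77 in this comparison. Narrower intervals were those of Kcnn1, at −0.04 to 0.23 around a logFC of 0.09, and of Kcnj11, at −0.24 to 0.12 around −0.06. For Kcnj3 and Kcnk5 the logFC was −0.60 (interval −1.37 to 0.16) and −0.53 (interval −1.14 to 0.08). With 4 ALL mice, changes inside these intervals were not resolved. The median logFC over the members was −0.0042, against −0.0047 over all genes tested.

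Between ALL and Mature mice, which differ in both age and diet, 4 members passed an FDR under 0.05 (7.41%), against 1087 of all genes (6.5%). Higher in ALL were Kcnab1 with a logFC of 1.86 (FDR = 7.7e-05) and Kcnn1, as given above, that is 3.7% of the tested members against 3.32% of all genes. Lower in ALL were Kcna1 with a logFC of −1.11 (FDR = 0.03) and Kcna2 with a logFC of −0.97 (FDR = 0.019), against 3.18% of all genes. The groups did not overlap for 3 members on the higher side, Kcnab1 and Kcnn1 among them, where 3.2% of all genes did so, and for Kcna1, Kcna2 and Kcnip2 on the lower side, where 2.84% did so. This comparison used the same Mature mice as that of Middle-aged with Mature, so the shared calls are not separate evidence. The call of Kcna1 was lost without Mature replicates 5 and 7 (logFC −0.71, FDR = 0.071), without ALL replicate 1 (FDR = 0.072), without ALL replicate 2 (FDR = 0.099) and in a fit of the ALL and Mature mice alone (logFC −1.11, FDR = 0.056). That of Kcna2 was lost without ALL replicate 2 (FDR = 0.059) and without ALL replicate 3 (FDR = 0.063), and held without Mature replicates 5 and 7 (logFC −0.69, FDR = 0.03).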

How the data were processed

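The authors made polyadenylated RNA libraries with a stranded kit from gastrocnemius and deposited a table of 45777 genes with whole-number read counts and TPM per mouse. The paper names STAR and StringTie, whereas the submitters' processing notes list Trimmomatic 0.38, FastQC 0.11.7, HISAT2 2.1.0, featureCounts and mm10. The deposited counts carried no normalization. The deposited TPM values, which the authors scaled for length and depth, were used only to compare levels between genes. Another 35 columns of values per sample were not used (10 of counts, 8 of TPM and 17 of FPKM). One extract protocol in the labels names adipose and liver, and the tissue field gastrocnemius was followed.

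Counts of 17 libraries (7 Mature, 6 Middle-aged, 4 ALL) were fitted in 1 model with edgeR 4.0.16 in R 4.3.3, using filterByExpr (29046 genes removed), TMM scaling, the quasi-likelihood test and Benjamini-Hochberg adjustment over all 16731 genes (common dispersion 0.0332). CPM are on TMM-scaled library sizes. A standard error is the logFC divided by the root of its F statistic, and 95% intervals are approximate, taken with 14 residual degrees of freedom. Fold changes used a prior count of 0.125. Scripts were tested on simulated data. No library repeated another: over the 42 replicate pairs, the chi-square divided by the number of genes was 19.5 to 229. Alternatives were DESeq2 1.42.0, scaling by library size alone or by RLE, no filter, the likelihood ratio test, separate fits of each pair of groups, replicate number as a block, the mitochondrial share as a covariate, Mature replicates 5 and 7 left out, and each mouse left out in turn. Figures were drawn with matplotlib 3.10.9 in Python 3.11.15.

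Named are members past the threshold in any comparison, the 8 with the highest level, the highest of each family, 12 subunits known from muscle or nerve, the 5 with the smallest p between ALL and Middle-aged, and of each gene list at most 4 genes with the smallest p between Middle-aged and Mature. Other genes are named with values after these were seen. A few genes that the rule names are not reported here. The members, gene lists and tests were chosen with earlier results of these data known.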

Additional observations from a re-analysis of the deposited data

Results flagged for a closer look

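In each group the highest and lowest mouse was checked for its gap to the next mouse, over 81 groups of the named members. Gaps above Dixon's 95% critical value were found in 5 groups, and about 1 in 20 groups (4.05 of them) passes by chance. Kcnip2 had 0 CPM in ALL replicate 4, against 0.136 CPM in the nearest ALL mouse. Kcnj15 had 0.659 CPM in Mature replicate 1, against 0.280 CPM in the nearest Mature mouse. Kcnj3 had 0.918 CPM in Middle-aged replicate 4, against 0.627 CPM in the nearest Middle-aged mouse. Kcnj3 also had 0.981 CPM in Mature replicate 7, against 0.495 CPM in the nearest Mature mouse. Kcnk1 had 0.473 CPM in Middle-aged replicate 3, against 0.252 CPM in the nearest Middle-aged mouse.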

How the results depend on the processing

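Each result was recomputed under 26 alternatives, 9 of them changes of method or sample set and 17 leaving out 1 mouse each. The members higher between Middle-aged and Mature numbered 3 in the fit as reported, 5 with the likelihood ratio test, 6 with the replicate block and 5 with the mitochondrial covariate, and 3 to 5 with 1 mouse left out (5 without Mature replicate 1, which added Kcnc1 and Kcnt2). The members higher between ALL and Mature numbered 2, and 4 with DESeq2, with the likelihood ratio test and with the mitochondrial covariate, Kcnf1 being among those added in each. The members lower between ALL and Mature numbered 2, with 1 under the replicate block (Kcna1 being lost, with a logFC of −0.84 and an FDR of 0.052), 1 without Mature replicates 5 and 7, and 0 to 3 with 1 mouse left out (0 without ALL replicate 2, 1 without ALL replicate 3). The cause of these changes was not tested. No member was called between ALL and Middle-aged in any alternative. For single members, no called value changed sign. Where neither fit called a member, a change of sign was counted only if the value moved by at least its standard error, which occurred without ALL replicate 1 for Kcnk1 (logFC −0.10) and Kcnma1 (logFC −0.06) between ALL and Middle-aged. The groups share replicate numbers. Of 14 pairs with the same number 5 correlated above 0.1 (−0.18 to 0.24). Their median correlation was 0.063, against −0.0062 for pairs with other numbers. In 11 of 28 checks of a mouse against another group, the mouse of the same number correlated best. These values do not decide whether the numbers pair the mice, and the fit as reported used no pairing. With the replicate block 615 genes of all those tested were called between ALL and Mature, against 1087 without it. DESeq2 called 1696 in that comparison, and edgeR called 707 without Mature replicate 6, 650 without ALL replicate 4 and 430 without ALL replicate 3. Depth limits the members under about 1 CPM, such as Kcnk1, Kcnu1 and Kcnip2.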
